A study of Mus musculus with 2 samples.

Results

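The genes described here are 50 mouse genes of mitosis, the stage in which a cell condenses its duplicated chromosomes, attaches them to the spindle and divides. They were listed by symbol, by a rule that uses no measured value, although earlier results of these data were known, and were sorted by role into mitotic cyclins and their kinase, mitotic kinases, the spindle checkpoint, anaphase genes, the chromosomal passenger complex, the kinetochore, condensin and chromosome structure, spindle motors, cytokinesis and 1 transcription factor. Of the 50, 43 had at least 1 probe named for them, 64 probes in all, among 16593 named genes on the array. Ccnb1, Aurkb, Cenpf, Smc4, Ncapg, Mki67 and Racgap1, 7 genes, had no named probe and were not analysed here.

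Total RNA came from cultured mouse embryonic fibroblasts, connective tissue cells taken from the embryo, of which 1 culture is labelled with the agent Fgf2 and 1 with no agent. Fgf2, fibroblast growth factor 2, is a mitogen for fibroblasts, signalling from cell surface FGF receptors through the ERK pathway. Both cultures are labelled male, and the labels used here give no strain, embryonic age, dose or duration. The title of the series refers to reprogramming fibroblasts to pluripotency with the help of a growth factor, and the 2 cultures compare the starting cells with and without it. Each culture was read on 1 Illumina bead array, which leaves every value without a replicate, an SD or a p-value across samples. In the design text both cultures lack Fgf2, so the direction of every difference rests on the titles and agent labels. A detection p-value compares a probe's signal with the array's background, and a probe counted as detected below 0.01. A difference is the level with Fgf2 minus that without it, in log2 units of background-corrected, quantile-normalized signals, whereas signals are quoted as deposited.

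The array with Fgf2 detected 10262 of 25697 probes and the array without it 10564, with median signals of 148.5 and 149.3. All 11 fibroblast markers with a probe were detected on both arrays, with summed signals of 62670.0 with Fgf2 and 72526.4 without it. Some of them differed by more than any mitosis gene: 7 of the 11 were lower with Fgf2 and 4 higher, from -2.53 for Col1a1 (954 with Fgf2 and 4895 without it) and -1.85 for Col1a2 to 1.36 for Pdgfra (4165 with Fgf2 and 1717 without it), all in log2 units. None of 6 endothelial and 3 erythroid markers was detected on either array, and 2 of 6 macrophage markers were detected on both. Of these, Cd14 had signals of 304 with Fgf2 and 176 without it, a difference of 1.58. The other, Lyz2, had 437 with Fgf2 and 394 without it (0.17). Of 5 epithelial markers, 2 were detected with Fgf2 and 3 without it, and Krt14, detected only without Fgf2, had 158 with Fgf2 and 483 without it. The 2 detected on both arrays went opposite ways. Krt8 had 267 with Fgf2 and 387 without it (-0.86), and Krt18 had 354 with Fgf2 and 296 without it (0.36). Xist, a transcript of the inactive X chromosome that male cells normally lack, was detected on both arrays, with signals of 584 with Fgf2 and 477 without it, which goes against the label of male cells. The Y-linked gene Eif2s3y was detected too, with signals of 496 with Fgf2 and 575 without it. Uty, also Y-linked, was detected close to background, with 176 with Fgf2 and 204 without it. Kdm5d, another Y-linked gene, was detected on neither array (166 with Fgf2 and 162 without it). What part the mix of cells had in the results was not tested.

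Mitosis is driven by Cdk1 bound to cyclin A or B, which phosphorylates many proteins at entry, and is ended when the anaphase-promoting complex marks the cyclins and securin for destruction. Kinetochores join chromosomes to spindle microtubules, and the spindle checkpoint holds back anaphase until all are attached. Most of these genes are transcribed in a wave that peaks in G2 and M phase, so in a culture their RNA can follow the share of dividing cells. A larger share of dividing cells and more RNA per dividing cell cannot be told apart in RNA from a whole culture.

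Mitosis genes were slightly higher in the culture with Fgf2, by similar amounts across most of the set. Among the 32 genes detected on both arrays the median difference was 0.34 (1.26-fold), with quartiles of 0.21 and 0.49, against a median of 0.03 over all 6898 genes detected on both. Of the 32, 30 were above 0, where 53.9% of all genes were. The differences were small: 2 of 32, Ncaph and Spc25, were at least 1.5-fold higher, where 6.76% of all genes were, and 0 were at least 1.5-fold lower, where 7.25% were. None reached 2-fold in either direction, while 1.80% of all genes were at least 2-fold higher and 2.52% at least 2-fold lower. A limit of 0.26, which 25.0% of all genes exceeded, was exceeded by 21 of the 32.

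Dim and bright members had similar differences. With all genes split by level into equal groups of low, middle and high level, the members' medians were 0.30 (7 genes), 0.33 (13 genes) and 0.38 (12 genes), whereas all genes in those groups had medians of 0.03, 0.03 and 0.04. Above 0 were 6 of 7 members of low, 12 of 13 of middle and 12 of 12 of high level. Of all genes in those groups, 53.0%, 52.8% and 55.9% were. Detection was also more frequent than on the array as a whole: 74.4% of the 43 genes with a probe were detected on both arrays, against 41.6% of all named genes. Another 2 members (4.7%) were detected only with Fgf2, against 1.7% of all named genes, and 0 only without it, against 2.8%. On neither array were 9 (20.9%), against 53.9%. Counts of 2 and 0 are too small to give a direction.

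**Figure D1:**
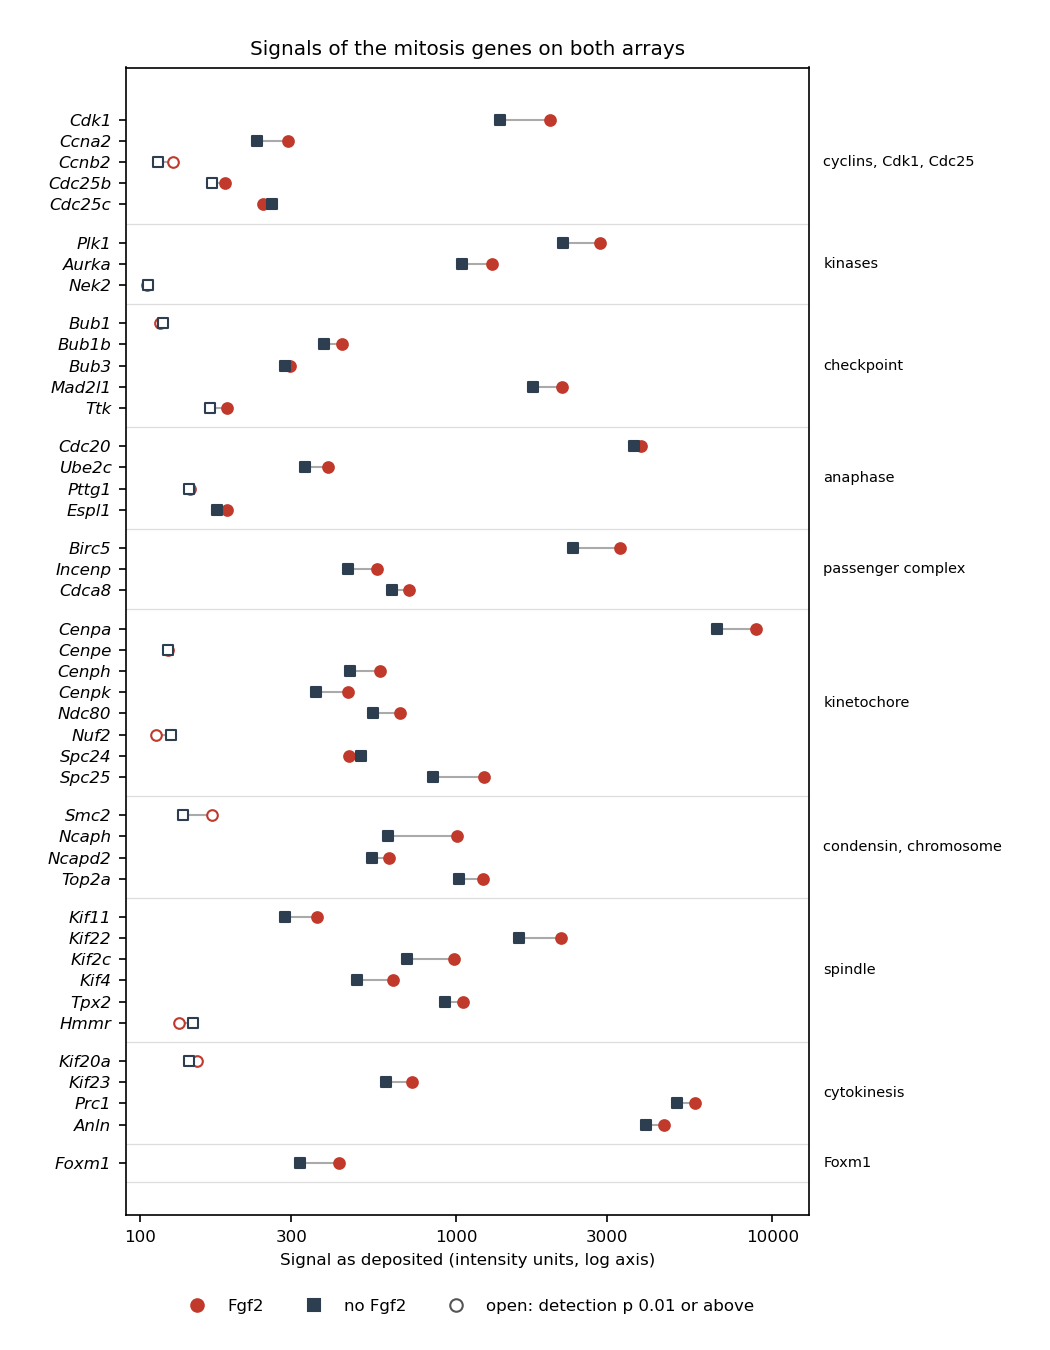
Signal as deposited (log axis) of the brightest probe of each mitosis gene on the array with Fgf2 (circles) and the array without it (squares), 1 array each, grouped by role. Filled symbols were detected at a p-value below 0.01. Circles lie to the right of squares for 30 of the 32 genes detected on both arrays, and Cdc25c and Spc24 are the exceptions. Positions of different genes are not comparable, since each probe has its own response.

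Promoters of such genes are known for a pair of short elements: CCAAT boxes, bound by the trimeric factor NF-Y, and the cell cycle genes homology region (CHR), bound by the MuvB complex together with B-Myb or p130 and, through it, by FoxM1. Promoter windows from RefSeq (GRCm38.p6), from 250 bases before to 50 after the annotated start, were available for 41 of the 50 genes. Matches were sought on both strands for the CHR as TTTGAA or TTCGAA and for the box as CCAAT, and in 1 of the 41 windows, that of Cdca8, a match of one overlapped a match of the other. A CHR match lay in 31 of 41 windows (75.6%), against 19.4% of all 27025 genes in the table. A CCAAT match lay in 33 (80.5%), against 37.9%, and both in 28 (68.3%), against 7.7%. Among genes detected on both arrays the shares with both were 69.2% of 26 members and 5.9% of 5691 genes. Of 97 windows of other mitosis genes, which the members do not include, 46.4% held a CHR match and 28.9% held both.

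The position of the CHR matches differed from that in other promoters as well. The last CHR match lay within 50 bases of the annotated start in 28 of 31 members (90.3%), against 1430 of 5254 promoters with a CHR match in the whole table (27.2%). In each of the 28 windows with both motifs a CCAAT match lay upstream of that CHR match, and the median distance between the nearest pair was 30 bases, ranging from 4 to 148. In 15 of the 28 the gap was between 20 and 40 bases. Most of each window usually lies upstream of its last CHR match, so this order is largely given by that choice. Order and gap were not compared with those in other promoters. A match to 5 or 6 letters is a description of the sequence, and binding was not measured.

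The sequences printed are the 4 promoters with both motifs whose genes had the highest differences among members detected on both arrays, namely Spc25, Cdk1, Kif22 and Kif11. They are printed 5′ to 3′ on the strand of the gene, in lower case, with CHR and CCAAT matches of either strand in capitals (TTCAAA and ATTGG are the matches read from the opposite strand). The windows are chr2:69206164-69206463 (minus strand), chr10:69352863-69353162 (minus strand), chr7:127042371-127042670 (minus strand) and chr19:37376132-37376431 (plus strand), in that order.
Spc25: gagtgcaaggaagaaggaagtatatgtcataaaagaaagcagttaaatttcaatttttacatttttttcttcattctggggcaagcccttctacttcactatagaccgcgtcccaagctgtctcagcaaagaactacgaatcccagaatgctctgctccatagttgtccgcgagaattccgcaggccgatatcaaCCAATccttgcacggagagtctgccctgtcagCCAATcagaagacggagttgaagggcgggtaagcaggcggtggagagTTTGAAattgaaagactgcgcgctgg
Cdk1: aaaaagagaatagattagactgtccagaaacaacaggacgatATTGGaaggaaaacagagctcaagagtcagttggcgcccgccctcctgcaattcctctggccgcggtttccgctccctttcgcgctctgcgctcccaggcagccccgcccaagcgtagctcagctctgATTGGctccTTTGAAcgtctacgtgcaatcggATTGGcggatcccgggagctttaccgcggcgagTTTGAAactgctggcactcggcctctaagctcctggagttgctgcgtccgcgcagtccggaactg
Kif22: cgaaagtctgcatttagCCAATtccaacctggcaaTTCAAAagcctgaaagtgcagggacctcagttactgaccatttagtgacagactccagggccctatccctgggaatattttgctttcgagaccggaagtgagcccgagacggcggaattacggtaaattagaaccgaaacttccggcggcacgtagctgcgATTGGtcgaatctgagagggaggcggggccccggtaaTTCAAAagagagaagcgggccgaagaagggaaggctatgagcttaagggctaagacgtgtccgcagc
Kif11: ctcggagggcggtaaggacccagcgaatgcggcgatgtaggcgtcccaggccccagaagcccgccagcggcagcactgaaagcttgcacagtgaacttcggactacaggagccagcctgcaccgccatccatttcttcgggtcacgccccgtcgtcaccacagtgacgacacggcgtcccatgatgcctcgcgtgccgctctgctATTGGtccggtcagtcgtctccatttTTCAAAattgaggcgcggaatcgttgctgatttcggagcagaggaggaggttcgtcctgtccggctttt

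In these 4 windows, as in all 28 with both motifs, at least 1 CCAAT match stands upstream of the last CHR match. That CHR match lies close to the start in each of the 4. Their gaps between the nearest pair were 42 bases in Spc25, 28 in Cdk1, 32 in Kif22 and 21 in Kif11. Cdk1 and Kif22 each held a second, more distant CHR match. The E2F core GCGGGAA, an element of S phase promoters, was about as frequent in this set as in all genes, at 2 of 41 windows (4.9%) against 4.7%. Among genes detected on both arrays it was rarer in the set, at 1 of 26 members (3.8%) against 8.7% of 5691 genes. It was held by 16.5% of 97 promoters of other mitosis genes and 42.9% of 35 promoters of S phase genes. Those S phase promoters held a CHR match in 17.1%.

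**Figure D2:**
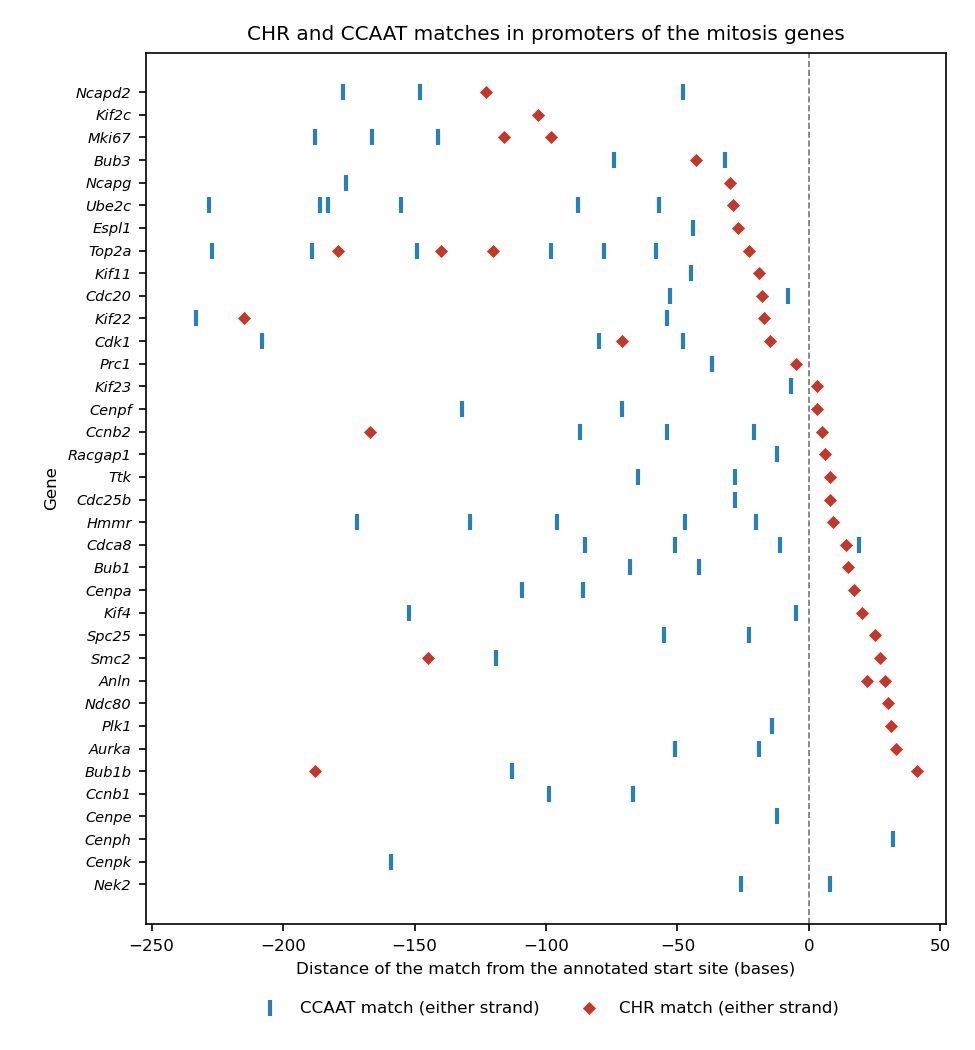
Positions of CHR matches (diamonds) and CCAAT matches (bars) from the annotated start site (dashed line), in bases, for each mitosis gene promoter window with at least 1 match, sorted by the last CHR match. In 28 of 31 windows with a CHR match the last one lies within 50 bases of the start, and 26 of these also hold a CCAAT match, upstream of it.

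Among members, the promoters with the motif pair did not go with the higher differences. The 18 members detected on both arrays with CHR and CCAAT matches had a median difference of 0.31, and the 3 with neither motif (Ncaph, Birc5 and Mad2l1) had 0.52. With 3 genes on one side this comparison is only a description.

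Of the cyclins, Cdk1 and its activating phosphatases, 3 of 6 were detected on both arrays and 2 of these were higher. Cdk1, the kinase of mitotic entry, had a signal of 1983 with Fgf2 and 1378 without it, a difference of 0.57 (1.49-fold). Its other 2 probes were detected on neither array. Ccna2, cyclin A2, which pairs with Cdk2 in S phase and with Cdk1 in G2, had signals of 293 with Fgf2 and 235 without it, a difference of 0.54. As a dim gene it depended on the background correction, and its difference was 0.31 without one.

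The Cdc25 phosphatases remove the inhibitory phosphates from Cdk1. Cdc25c gave a different sign by probe: the brightest had 244 with Fgf2 and 261 without it (a difference of -0.20), and the other detected probe 275 with Fgf2 and 223 without it (0.52). No direction can therefore be given for Cdc25c. Cdc25b was detected only with Fgf2, with signals of 185 with Fgf2 and 169 without it and detection p-values of 0.0038 and 0.0125. Its level with Fgf2 was 1.23-fold that of the dimmest detected probe of the array without Fgf2. The 2 p-values lie on either side of the limit, so no difference is given for Cdc25b. Ccnb2, cyclin B2, was below detection on both arrays, with signals of 127 with Fgf2 and 113 without it.

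Both detected mitotic kinases were higher with Fgf2. Plk1, polo-like kinase, which acts in entry, centrosome maturation and cytokinesis, had 2846 with Fgf2 and 2166 without it, a difference of 0.42. Aurka, the Aurora kinase of spindle poles, had 1293 with Fgf2 and 1042 without it, a difference of 0.33. Nek2, a kinase of centrosome separation, was not detected, with 105 with Fgf2 and 106 without it.

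Checkpoint genes had a median of 0.22 over 3 genes. Mad2l1, which encodes the Mad2 protein that inhibits Cdc20, had 2151 with Fgf2 and 1742 without it, a difference of 0.34. Bub1b, the checkpoint protein BubR1, had 435 with Fgf2 and 382 without it (0.22). Bub3, which anchors BubR1 and Bub1 at kinetochores, was close to level, with 296 with Fgf2 and 288 without it (0.06). Ttk, the kinase Mps1 at the head of the checkpoint, was detected only with Fgf2, with signals of 188 with Fgf2 and 166 without it. Its detection p-values, 0.0038 and 0.0150, lie on either side of the limit, and no difference is given for it. The level of Ttk with Fgf2 was 1.28-fold that of the dimmest detected probe of the array without Fgf2. Bub1 was detected on neither array (115 with Fgf2 and 118 without it).

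Anaphase genes had a median of 0.28 over 3 genes, which was 0.10 with no background correction and 0.18 with an offset of 50. Ube2c, the ubiquitin-conjugating enzyme of the anaphase-promoting complex, had 391 with Fgf2 and 331 without it, a difference of 0.30. Espl1, separase, which cleaves cohesin, had 188 with Fgf2 and 174 without it (0.28), barely above background, and as the middle value it sets that median, with detection p-values of 0.0038 and 0.0088.

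Cdc20, the activator of the same complex, was read by 4 detected probes, all higher with Fgf2 but by unequal amounts. The brightest had 3836 with Fgf2 and 3654 without it, a difference of only 0.07. The others had 1875 with Fgf2 and 1339 without it (0.54), 1442 with Fgf2 and 1197 without it (0.29), and 807 with Fgf2 and 698 without it (0.24). Since the set takes each gene by its brightest probe, Cdc20 enters with the lowest of its 4 values. Pttg1, securin, which holds separase inactive, was not detected, with 144 with Fgf2 and 143 without it.

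The chromosomal passenger complex carries Aurora B to centromeres and then to the central spindle. Birc5, survivin, was higher by each of its 3 probes: the brightest had 3286 with Fgf2 and 2343 without it (0.52), the next 2846 with Fgf2 and 2056 without it (0.50), and the last 2381 with Fgf2 and 1509 without it (0.72). Incenp, the scaffold of the complex, had 559.8 with Fgf2 and 455 without it, a difference of 0.36. Cdca8, borealin, had 709 with Fgf2 and 625 without it (0.21). All 3 measured subunits were on the same side, between 0.21 and 0.52.

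Kinetochore and centromere genes had a median of 0.40 over 6 genes, with 5 above 0. Cenpa, the histone H3 variant that marks centromeres, had a signal of 8864 with Fgf2 and 6661 without it, a difference of 0.42. Cenph and Cenpk, neighbouring subunits of the inner kinetochore, were alike: Cenph had 574 with Fgf2 and 460.5 without it (0.39), and Cenpk 453 with Fgf2 and 358 without it (0.43).

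The Ndc80 complex, which grips microtubules, is made of Ndc80, Nuf2, Spc24 and Spc25. Spc25 was higher by both of its probes, with 1226 with Fgf2 and 843 without it (0.60, or 1.51-fold) and with 1043 with Fgf2 and 703 without it (0.64). Ndc80 had 664 with Fgf2 and 546 without it, a difference of 0.33. Spc24, the direct partner of Spc25, split by probe: the brightest had 458 with Fgf2 and 498 without it (-0.17), and the other 309 with Fgf2 and 262 without it (0.37). As for Cdc25c, the sign of Spc24 depends on the probe. Nuf2 was below detection, with 112 with Fgf2 and 125 without it, and so was the kinetochore motor gene Cenpe, with 122 on both arrays.

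Ncaph, a non-SMC subunit of condensin I, had the greatest difference of all members detected on both arrays, with 1002 with Fgf2 and 605 without it, 0.83 or 1.78-fold. Ncapd2, another subunit of the same complex, was closer to level, with 612 with Fgf2 and 541 without it (0.20), and its second detected probe gave 194 with Fgf2 and 172 without it (0.45). Smc2, a core ATPase of condensin, was below detection at the threshold used: its signal was 168 with Fgf2 and 136 without it, with detection p-values of 0.0163 and 0.2256. Top2a, the topoisomerase that untangles sister chromatids, had 1212 with Fgf2 and 1019 without it, a difference of 0.26. The detected condensin subunits, Ncaph and Ncapd2, gave unequal values. Ncaph was read by only 1 probe, however, and the detected probes of Ncapd2 differed from each other as well. The condensin subunit genes Smc4 and Ncapg were not analysed.

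Spindle genes had a median of 0.48 over 5 genes. Kif2c, the microtubule-depolymerizing kinesin MCAK, had 985 with Fgf2 and 697 without it, a difference of 0.57. Kif22, a chromosome-arm kinesin, had 2135 with Fgf2 and 1575 without it (0.49). Kif11, the kinesin Eg5 that pushes spindle poles apart, had 362 with Fgf2 and 287 without it (0.48).

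Kif4, the chromokinesin, was less certain, because its 3 detected probes were not alike. The brightest had 631 with Fgf2 and 484 without it (0.47), the next 295 with Fgf2 and 281 without it (0.10), and the last 254 with Fgf2 and 256 without it (-0.05). Their mean was 0.17. Tpx2, which activates Aurora A on spindle microtubules, had 1049 with Fgf2 and 922 without it, a difference of 0.20. Hmmr, a spindle assembly factor, was detected by neither of its probes.

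Cytokinesis genes had a median of 0.20 over 3 genes. Kif23, the motor of the centralspindlin complex, had 723 with Fgf2 and 598 without it (0.31). Prc1, which bundles the antiparallel microtubules of the midzone, had 5681 with Fgf2 and 4978 without it (0.19), and Anln, anillin, of the contractile ring, had 4541 with Fgf2 and 3989 without it (0.20). The second detected probe of Anln gave 208 with Fgf2 and 185 without it (0.37). Kif20a was detected on neither array (151 with Fgf2 and 142 without it). The ranges of the spindle genes (0.20 to 0.57) and of the cytokinesis genes (0.19 to 0.31) overlapped, and the order of the medians of the role groups changed with the processing.

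Foxm1 encodes the transcription factor that switches on many genes of this set in G2. Both of its probes were higher with Fgf2: the brightest had 426 with Fgf2 and 320.2 without it (0.56, or 1.47-fold), and the other 433 with Fgf2 and 311 without it (0.66). Its difference exceeded that of 92.4% of all genes detected on both arrays.

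Probes gave a check of the measurement, though not of the cultures. Of 45 member probes detected on both arrays, 42 were above 0, with a median of 0.37. Several detected probes existed for 9 members, and in 6 of these all had the same sign. Cdc25c, Kif4 and Spc24 were the exceptions, and the same 3 were those whose probes differed by more than 0.5. The pooled SD between probes of one member was 0.24 (9 genes, 22 probes), and over all genes 0.22 (1749 genes, 4102 probes), so the differences of single members are of the same order as the disagreement between probes.

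**Figure D3:**
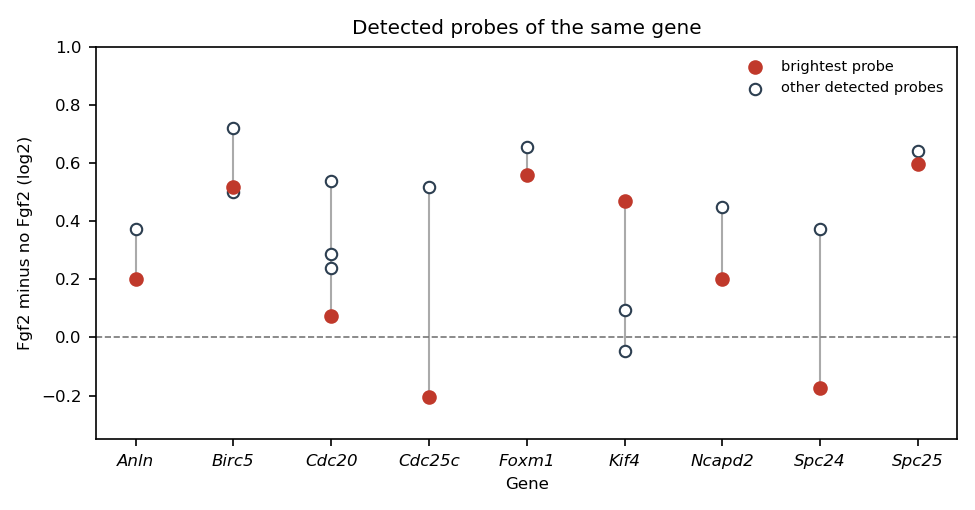
Difference (Fgf2 minus no Fgf2, log2) of each probe detected on both arrays for the 9 mitosis genes with more than 1 such probe. The filled point is the brightest probe, which stands for the gene elsewhere, and open points are the others. Birc5, Foxm1 and Spc25 have all probes at 0.50 or above, while Cdc25c, Spc24 and Kif4 have probes on both sides of 0.

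A wider list of 115 other mitosis genes showed a similar but more mixed picture. Of 94 with a probe, 72 were detected on both arrays, with a median of 0.25. Above 0 were 50 of the 72 (69.4%), against 53.9% of all genes. At least 1.5-fold higher were 11 of the 72, where 6.76% of all genes were, and at least 1.5-fold lower was 1, where 7.25% were. The highest was Depdc1b, with a signal of 317 with Fgf2 and 214 without it, a difference of 0.97. Cdca2, which brings a phosphatase to chromosomes, had 1064 with Fgf2 and 634 without it (0.86). Ncapd3, a subunit of condensin II, had 612 with Fgf2 and 398 without it (0.77). The other subunits found in condensin II alone, each with 3 probes, lay close to 0 by the brightest probe. Ncapg2 had 268 with Fgf2 and 272 without it (-0.05), and Ncaph2 had 1222 with Fgf2 and 1186 without it (0.03). Their further probes are not given here. Dimmer genes were the Mis12 complex subunit Pmf1, with 229 with Fgf2 and 178 without it (0.82), and the spindle pole gene Aspm, with 354 with Fgf2 and 248 without it (0.79). With no background correction these were 0.36 for Pmf1, 0.48 for Aspm and 0.54 for Depdc1b.

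The lowest of the wider list was Cenpm, of the inner kinetochore, at -0.76 (212 with Fgf2 and 277 without it), but its detected probes ranged from -0.76 to 0.50. Its mean over probes was -0.12. Next came Cdc25a, the Cdc25 phosphatase best known for G1 and S phase, with 266 with Fgf2 and 330 without it (-0.54), and the centriole gene Cenpj, with 179 with Fgf2 and 203 without it (-0.47). Kpna2, an importin, had 651 with Fgf2 and 768 without it (-0.29). Mis12, a partner of Pmf1 in one complex, had 197 with Fgf2 and 208 without it (-0.20). With no background correction the differences were -0.40 for Cenpm, -0.33 for Cdc25a, -0.19 for Cenpj, -0.24 for Kpna2 and -0.09 for Mis12. Nsl1 was detected only with Fgf2, as 1.7% of all named genes were. Of the 94 genes with a probe, 21 were detected on neither array, against 53.9% of all named genes.

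Genes of the other cell cycle phases are given for scale. S phase genes had a median of 0.38, with 35 of 36 above 0, where 53.9% of all genes were. At least 1.5-fold higher were 6 of the 36, where 6.76% of all genes were. The highest were Tk1, thymidine kinase, with 1848 with Fgf2 and 1064 without it (0.88), and Lig1, DNA ligase, with 1091 with Fgf2 and 646 without it (0.86), although another Lig1 probe gave only 0.16. The lowest were Mcm3, with 347 with Fgf2 and 351 without it (-0.08), and Ccne1, with 307 with Fgf2 and 301 without it (0.02), and both change sign under another scaling. D cyclins and CDK inhibitors had a median of 0.19, with 7 of 12 above 0 (58.3%), close to the 53.9% of all genes. Ccnd1 had 15118 with Fgf2 and 6096 without it (1.36) and the inhibitor gene Cdkn2a 3199.8 with Fgf2 and 2079 without it (0.64). Ccnd2 had 2207 with Fgf2 and 4785 without it (-1.15), and Cdkn1a 6105 with Fgf2 and 6653 without it (-0.11), where the mean of its 3 detected probes was -0.33 and the lowest of them -0.57. The medians of the mitosis and S phase lists lay closer to each other than either did to that of all genes, and whether they differ was not tested.

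**Figure D4:**
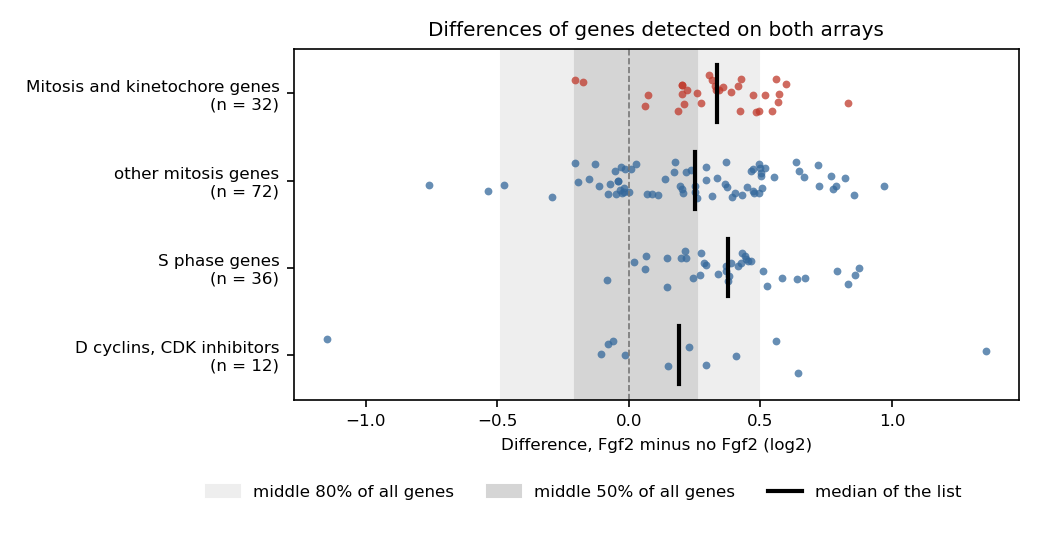
Difference (Fgf2 minus no Fgf2, log2) of every gene detected on both arrays in 4 lists, 1 point a gene, with the list's median as a black line. Grey bands hold the middle 50% and 80% of all 6898 genes. The medians are 0.34 for mitosis and kinetochore genes, 0.25 for other mitosis genes, 0.38 for S phase genes and 0.19 for D cyclins and CDK inhibitors.

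The direction of the members' median held under every other processing that was tried. It ranged from 0.29 with no background correction to 0.38 with median scaling, while the median of all genes ranged from 0.01 to 0.08. With the mean of a gene's detected probes in place of the brightest, 32 of 32 members were above 0, since Cdc25c and Spc24 then gave 0.16 and 0.10.

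**Figure D5:**
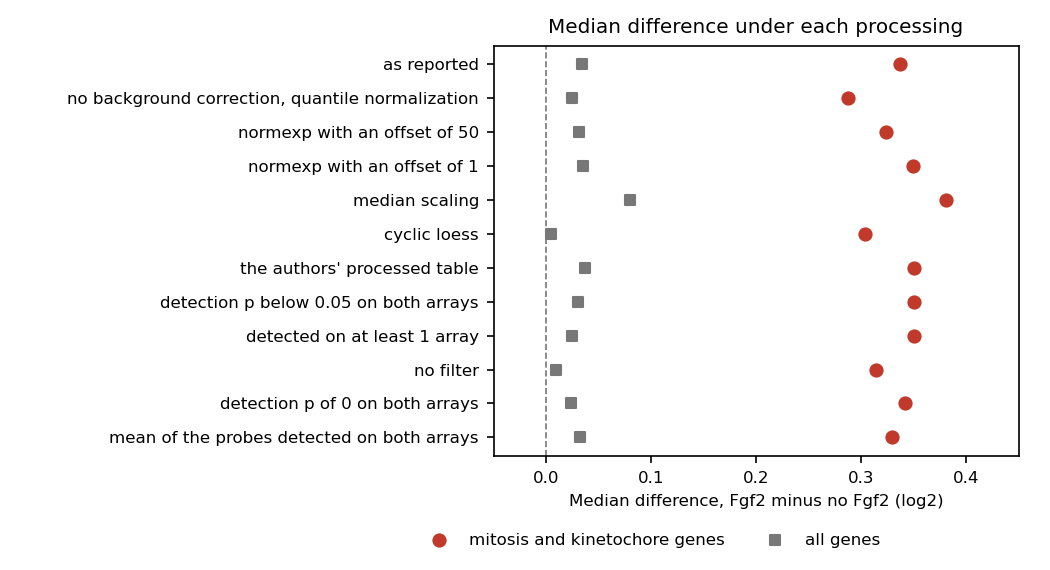
Median difference (Fgf2 minus no Fgf2, log2) of the mitosis and kinetochore genes (circles) and of all genes (squares) under the processing reported and 11 others. The circles lie between 0.29 and 0.38 and the squares between 0.01 and 0.08.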

How the data were processed

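Groups were taken from the agent labels, 1 array each, from 300 ng of RNA per the labels' protocols. The signals are linear intensity values, deposited by the authors and not brought to a common distribution, and a detection p-value per probe stands beside each, per the file headers. The authors also deposited processed values, found here to be log2 values, whose ranks match the signals of the same array (rank correlation 1.0) and whose median, 4.30, is the same in both columns. Their centring and background correction are unknown. BeadStudio 3.2, RMA and lumi are named, with no role, per the submitters' processing notes.

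Background (mean 128.4 with Fgf2 and 127.9 without it) was inferred from the detection p-values and removed by normexp in limma 3.58.1 (R 4.3.3), with an offset of 16, before quantile normalization and log2. Differences of dim genes are compressed where background remains. Tables and plots used Python 3.11.15, pandas 2.3.3, numpy 2.4.6 and matplotlib 3.10.9. The platform annotation named 23978 probes by 1 symbol, 0 by several and 1719 by none, and 23962 were updated through Entrez numbers. A gene is its probe with the highest mean level. With 1 array per group no test could be run, so calls are by fold (1.5 and 2) among genes detected on both arrays, and the number of arrays limits the precision. One promoter window, the first listed, was used per gene.

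The members, lists and rules for naming genes were chosen with earlier results of these data known. Named are all members, the 5 highest and 5 lowest of the other mitosis genes, and the 2 highest and 2 lowest of the S phase and G1 lists. Nsl1, Ncapg2, Ncaph2 and the single cell type markers were named after their values were seen. The steps were tested on simulated arrays. Alternatives were no background correction, an offset of 50 or of 1, scaling by medians, cyclic loess, the processed table, other detection filters and the mean of probes.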

Additional observations from a re-analysis of the deposited data

How the results depend on the processing

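The median of the mitosis genes kept its sign under all 11 alternatives and stayed within 0.29 to 0.38. With bounds entered for the 2 members detected on 1 array, an alternative chosen after seeing the data, it was 0.34. Both were detected only with Fgf2, where the lowest detected normalized level, in log2 units, was 5.99, against 5.87 without it. Their bounds, 1.23-fold for Cdc25b and 1.28-fold for Ttk, could therefore only be higher with Fgf2. The median with these bounds is thus no test of the sign. Counts near a fold limit moved more. The 2 members at least 1.5-fold higher became 1 with no background correction, 1 with an offset of 50, 4 with an offset of 1, 6 with median scaling, 1 with cyclic loess and 6 in the authors' processed table. Under these settings the count over all 6898 genes, 466 as reported, ranged from 218 with no background correction to 594 in the processed table. The other mitosis genes at least 1.5-fold higher, 11 as reported, were 5 with no background correction and 7 when both detection p-values had to be 0. Those at least 1.5-fold lower, 1 as reported, were 0 with no background correction or with the mean of probes, and 2 with an offset of 1 or in the processed table. Those at least 2-fold higher, 0 as reported, were 1 with an offset of 1 or median scaling and 2 in the processed table. The 6 S phase genes at least 1.5-fold higher became 2 with no background correction. The cyclin and Cdk1 group's median of 0.54 became 0.31 with no background correction, and with no filter 4 of 5 genes of the group were above 0. The anaphase group's median of 0.28 became 0.10 with no background correction, 0.18 with an offset of 50, 0.18 with no filter and 0.19 when both detection p-values had to be 0, and was then below that of the cytokinesis group (0.20, 0.20, 0.22 and 0.20). With the mean of probes the checkpoint group's 0.22 was below the cytokinesis group's 0.29. The condensin group's median of 0.26 became 0.55 with no filter, which admits Smc2. Cdc25c and Spc24 turned to 0.16 and 0.10 with the mean of probes, Mcm3 to 0.0059 with median scaling, and Ccne1 to -0.0036 and unlisted genes without either promoter motif to -0.015 with cyclic loess. Of 224 values of single members, 220 moved by less than the pooled SD between probes. TTTGAA alone was held by 70.7% of member promoters and 18.1% of all, and any window of a gene gave 75.6% and 21.7% for the CHR. No paired analysis was possible because each group has 1 array. Precision is limited by that number and, for dim genes, by signal over background.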

Other observations

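The CHR and CCAAT pair was also looked for in genes detected on both arrays that belong to none of the lists, a comparison chosen after seeing the data. The 303 such genes with both motifs had a median difference of 0.11, and 193 of them (63.7%) were above 0. The 2920 genes with neither motif had a median of 0.01, with 51.5% above 0. Genes with a CHR match alone (437 genes) and with a CCAAT match alone (1898 genes) lay between, with medians of 0.06 and 0.05. At least 1.5-fold higher were 5.94% of genes with both motifs and 6.30% of those with neither. Under the 6 other background corrections, normalizations and the processed table, the median of genes with both motifs ranged from 0.08 to 0.15 and that of genes with neither from -0.02 to 0.06. Unlisted genes of the cell cycle may be among the 303, and these were not separated.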
